A study of Saccharomyces cerevisiae with 11 samples.

Results

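The comparison set a library of designed activation-domain peptides after 72 h of growth under the label 200 aureobasidin against the same library at 48 h under that label. It covered library entries with reads at both times, which were 9172 of 12400 entries in 143 design sets. A further 531 entries had reads at 72 h alone, 1624 at 48 h alone (the highest at a mean of 5.52 counts per 1000000 reads, CPM) and 1073 at neither time. The host was Y2H Gold, a Saccharomyces cerevisiae reporter strain, and each peptide was 20 residues long.

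The groups were 200 aureobasidin at 72 h and 200 aureobasidin at 48 h. Samples of 150 aureobasidin at 72 h and 48 h served for comparison, and the untreated culture at 0 h with 200 aureobasidin at 12 and 24 h gave earlier levels. All carried the same library, grew without tryptophan and were diluted daily. Each group is 1 sample read as 5 barcoded sub-libraries, which the series text calls biological replicates. No label says that the sub-libraries were grown separately, so p-values measure the spread between barcodes, which may be technical. A difference between times or labels cannot be told apart from a difference between cultures. Doses are given as bare label numbers, since the sources used here disagree about their unit.

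An activation domain is the stretch of a transcription factor that recruits coactivators such as Mediator to a promoter. Many are disordered and acidic, with aromatic or leucine residues set among aspartates and glutamates. Aureobasidin A is an antifungal that blocks an enzyme of sphingolipid synthesis, and in this strain activation of the reporter gives resistance to it. An entry's share of reads is relative, so a gain by a few entries lowers the share of the others.

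Entries are named by their number in the deposited table. Most of those described are versions of templates in the design set labelled set32, which are built from aspartate, tryptophan and glycine. In the leucine, methionine, proline and similar series some glycines of a template were replaced by that residue. The table gives each entry its own DNA tag of 20 bases. Tags are shown for the 4 largest entries at 72 h, for the template of ranks 1 and 4, and for 4 control entries that encode 1 peptide and can be told apart by their tags.

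entry 8135, leucine series, rank 1 at 72 h: ggccacatgtgtctgtcttt
entry 8122, leucine series, rank 2: gatgttgtagagcttgatcg
entry 8824, proline series, rank 3: ctgtgaacgcattcgctagc
entry 8235, methionine series, rank 4: cctccatcgcgttgcatacg
entry 12035, template of entries 8135 and 8235: aagcttagcctctttcccga
entry 6843, control: taagagcgtgaggatacttt
entry 6840, control with the same peptide: gtttctcctggtcggactaa
entry 6841, control with the same peptide: ggcactaaaggaggtaacct
entry 6842, control with the same peptide: agcgtgcattctcgagaacg

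The pool narrowed to a small number of peptides between 48 h and 72 h. The effective number of entries, an inverse Simpson index, is the number of equally abundant entries that would concentrate the reads to the same degree. It was 17.8, 13.2, 24.7, 20.6 and 31.8 at 72 h in barcodes 1 to 5, against 137, 117, 159, 161 and 143 at 48 h. All 5 barcodes were lower at 72 h and the groups did not overlap. Means were 21.6 ± 7.04 at 72 h and 143 ± 17.7 at 48 h (SD, n = 5 each; two-sided exact permutation p = 0.00794, the smallest that 5 against 5 can give). Sign flips within barcodes gave 0.0625, the smallest they can give.

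A few entries held most of this concentration. The largest entry of each library had 19.6 ± 5.41% of the reads at 72 h and 4.78 ± 1.01% at 48 h, and the 10 largest had 40.8 ± 3.64% at 72 h and 18.2 ± 1.20% at 48 h. At 72 h, 18.2 ± 3.56 entries made up 50% of the reads, against 69.0 ± 6.71 at 48 h. With entry 8135 left out, the effective number was 75.5 ± 22.9 at 72 h and 188 ± 23.2 at 48 h (exact permutation p = 0.00794, n = 5 each).

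Total counts ran from 1483123 to 3392656 per library at 72 h and from 1086246 to 2371857 at 48 h. The 153 entries that begin with a stop codon encode no peptide, and they held 0.00428 ± 0.00132% of reads at 72 h and 0.0166 ± 0.00244% at 48 h, without overlap. None of them exceeded a mean of 2.69 CPM. Libraries under the label 200 held reads of 5018.8 entries on average at 72 h and 6549 at 48 h, against 1989.8 and 2579.8 under the label 150. Reads of stop-first entries averaged 102.6 per library at 72 h and 272.2 at 48 h under the label 200. Under the label 150 they averaged 0 and 1.2. Some of the 9172 entries with reads at both times may thus hold background counts alone. The part of these low counts in the results was not tested. Keeping all entries above the stop-first level fitted 2087 entries, more than the 1764 of the main fit described next. It gave 83 rises and 1894 falls, against 83 and 1597 in the main fit. In the main fit 0 of 681 entries with a mean under 50 CPM rose, so a cut at the stop-first level could not lower the rises.

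Few entries gained share. Of 1764 entries with a mean count of 10 or more, 1680 changed (95.2%) in edgeR's quasi-likelihood test, scaled to total counts with the barcode as a block, at a Benjamini-Hochberg adjusted p under 0.05. Among them 83 rose (4.71%) and 1597 fell (90.5%). The other 7408 members lay below the minimum, the nearest at a mean count of 9.9, and the fitted entries held 99.7% of reads at 72 h and 98.9% at 48 h. The median log2 change was -2.08.

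Scaling decides the direction of many entries. TMM factors moved the median log2 change to -0.35, a shift of 1.72, and gave 573 rises and 813 falls. Rises were 41.3% of calls with TMM against 4.94% with total counts. All 83 rises were also rises with TMM, whereas falls smaller than the shift turned positive. "Rose" and "fell" below refer to shares of total counts. Without the barcode block 1 entry rose, entry 8135, and 658 fell. Shares of an entry differed widely between barcodes, and deviations of the same barcode at the 2 times correlated at 0.916 to 0.930 over the 1764 entries.

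Entry 8135 of the leucine series led the pool. It has 7 tryptophans and 7 aspartates and differs from template 12035 by G5L, G12L and G16L, counted from the amino end with the template's residue first. It held 22.1%, 26.0%, 18.2%, 20.5% and 10.6% of reads at 72 h in barcodes 1 to 5, against 5.19%, 6.37%, 3.93%, 4.22% and 2.28% at 48 h. Every library at 72 h lay above every library at 48 h, which was so for 1 rise of the 1764 fitted entries (0.0567%). Its log2 change was 2.17 (SE 0.06, edgeR adjusted p = 2.35e-25), and the ratio of its shares was 4.08 to 4.87 over the barcodes. Its mean share was 0.108% at 0 h, 0.176% at 12 h, 0.718% at 24 h, 4.40% at 48 h and 19.5% at 72 h. It was the largest entry in barcodes 1 to 4 at 72 h and at 48 h.

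Entry 8122, also of the leucine series, was the largest in barcode 5 at both times. It has 5 tryptophans, 5 aspartates and the changes G1L, G6L, G11L, G12L and G15L. Its shares were 2.31%, 5.17%, 1.80%, 0.974% and 11.4% at 72 h, against 0.867%, 2.10%, 0.607%, 0.334% and 4.18% at 48 h. The groups overlapped, with barcode 5 high and barcode 4 low at both times, while every barcode was higher at 72 h by a ratio of 2.47 to 2.96. The log2 change was 1.45 (SE 0.06, edgeR adjusted p = 5.5e-21).

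Entry 8824 of the proline series, with 7 tryptophans, 7 aspartates and the changes G1P, G5P and G18P, had rank 3 by mean share at 72 h and rank 6 at 48 h. It held 2.18%, 0.601%, 3.86%, 0.416% and 3.08% at 72 h, against 1.13%, 0.302%, 1.80%, 0.167% and 1.48% at 48 h. Barcodes 2 and 4 were low at both times and the groups overlapped. The log2 change was 1.08 (SE 0.06, edgeR adjusted p = 2.73e-17).

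Entry 8235 is the methionine version of the same template as the leader (G5M, G12M and G16M) and had rank 4 at 72 h and rank 7 at 48 h. Its shares were 3.39%, 1.46%, 1.51%, 2.42% and 1.01% at 72 h, against 1.56%, 0.737%, 0.665%, 1.07% and 0.398% at 48 h. The groups overlapped and every barcode was higher at 72 h, by a ratio of 1.98 to 2.53, below the range of the leucine version. The log2 change was 1.16 (SE 0.06, edgeR adjusted p = 3.58e-18).

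Entry 8256, a methionine version with 8 tryptophans and 8 aspartates (G12M and G14M), had rank 7 at 72 h and rank 17 at 48 h. Its shares were 0.982%, 1.79%, 1.22%, 0.744% and 1.80% at 72 h, against 0.578%, 1.07%, 0.617%, 0.268% and 0.986% at 48 h. Barcode 4 was lowest at both times, and the groups overlapped. The log2 change was 0.96 (SE 0.08, edgeR adjusted p = 8.83e-14).

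Other entries of high rank rose by less. Leucine entry 8168 had rank 5 at 72 h and rank 3 at 48 h, with 1.71 ± 0.568% at 72 h, 1.27 ± 0.457% at 48 h and a log2 change of 0.44. Methionine entry 8210 had rank 8 and rank 4, with a log2 change of 0.27. Entries 8173 (leucine) and 8273 (methionine) share a template and had log2 changes of 0.63 and 0.64. Proline entry 8880 rose by 0.71 and had rank 12 at 72 h and rank 19 at 48 h. Of the 12 largest entries at 72 h, 8 were among the 12 largest at 48 h.

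One of the 12 largest entries at 48 h lost share. Entry 10797 of set20, an unsubstituted design with 9 tryptophans and 7 aspartates, had rank 28 at 72 h and rank 9 at 48 h. Its shares ran from 0.0893% to 1.13% at 72 h and from 0.104% to 1.42% at 48 h, lower in 5 of 5 barcodes with overlap between groups. Its log2 change was -0.30 (SE 0.06, edgeR adjusted p = 2.74e-05) with total counts and 1.44 with TMM factors.

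The 12 largest rises among entries with a mean of at least 200 CPM stood on 10 distinct designs or templates. They were 6 leucine, 3 methionine and 1 proline entries and 2 controls made of tryptophan and aspartate. Beside those above, leucine entries 8113, 8120, 8111 and 8099 had log2 changes of 1.03, 0.87, 0.87 and 0.81, and methionine entry 8288 had 0.87. For entry 8120 barcode 5 stood apart, with 1.91% against 0.0418% to 0.071% in the other barcodes at 72 h, and 0.919% against 0.0202% to 0.0348% at 48 h.

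Versions of a single template moved in opposite directions. The other versions of a named entry's template were looked up after its values had been seen. On template 12035, 12 of 20 entries were fitted, 2 rose and 10 fell, where 90.5% of all fitted entries fell. The 2 rises were leucine and methionine. The template itself held 0.00217 ± 0.00105% at 72 h and 0.0151 ± 0.00848% at 48 h, without overlap, at a log2 change of -2.77 (SE 0.15, edgeR adjusted p = 7.32e-18). The valine version was at 0.0941% at 0 h, where leucine was at 0.108%, and it had 0.0451 ± 0.0681% at 72 h and 0.164 ± 0.240% at 48 h, a log2 change of -1.88.

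The other replacements of glycine on that template fell too. Log2 changes were -2.10 for alanine, -1.80 for threonine, -1.84 for proline, -2.68 for asparagine, -3.08 for glutamine and -4.31 for cysteine. Of its 10 falls, 1 was above 0 with TMM factors, the replacement of some tryptophans by leucine (log2 change -0.88 with total counts and 0.85 with TMM). The isoleucine version had no read in the libraries of 0, 48 or 72 h.

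Template 12022, behind entry 8122, also had rises of leucine and methionine and of no other version among 11 fitted. The methionine version, entry 8222, held 0.982 ± 0.814% at 72 h and 0.725 ± 0.607% at 48 h, a log2 change of 0.50. The alanine version was at 0.0912% at 0 h, where leucine was at 0.0657%, and its log2 change was -2.80. The template had a log2 change of -3.65.

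The residues that gained differed between templates. On template 12024 proline had a log2 change of 1.08, leucine 0.55, all tryptophans to leucine 0.69 and some tryptophans to leucine 0.37. Methionine and isoleucine on that template had -0.22 and -0.78 with total counts but 1.55 and 0.96 with TMM. On template 12056 methionine had 0.96, and the leucine version had 0.0372 ± 0.0529% at 72 h and 0.104 ± 0.130% at 48 h, a log2 change of -1.68 with total counts and 0.04 with TMM. On template 12010 methionine had 0.27, alanine 0.32 and some tryptophans to phenylalanine 0.57, while leucine had -1.82.

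Further templates showed other orders of the same residues. On template 12013 leucine had 1.03, methionine -0.01 (SE 0.08, edgeR adjusted p = 0.92), isoleucine -1.80 and valine -3.18. On template 12068 leucine had 0.44, isoleucine -3.04 and valine -3.44, and methionine had -0.47 with total counts and 1.27 with TMM. On template 12080 proline had 0.71 and leucine 0.17, and methionine had -0.32 with total counts and 1.42 with TMM.

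Across templates, the signed log2 change of leucine versions was mostly above that of valine and isoleucine versions of the same template, many of which fell steeply. Where both versions were fitted, leucine had the higher signed log2 change on 36 of 38 templates against valine (median difference 2.25) and on 30 of 32 against isoleucine (1.92). It was higher on 52 of 65 against alanine (1.21), 48 of 62 against threonine (1.10) and 41 of 70 against proline (0.17). Against methionine it was higher on 35 of 69 and lower on 34 (0.09). These counts cover versions above the count minimum and are a description.

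Of 87 templates with a version of at least 200 CPM, the largest version at 72 h was leucine for 33, methionine for 25 and proline for 13. At 48 h these numbers were 32, 27 and 13. At 0 h they were 19, 14 and 3, with valine for 12 and cysteine for 10. Valine and cysteine were largest for 0 templates at 72 h and at 48 h. The largest version was the same at both later times for 76 templates.

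Each series was also set against its own templates within each library, as the mean log2 difference over pairs with both entries fitted. Methionine versions stood 4.35 ± 0.0936 above their templates at 72 h and 3.03 ± 0.126 at 48 h, a difference of 1.32 with 62 of 70 pairs in that direction. Leucine versions stood 4.59 ± 0.393 above at 72 h and 3.33 ± 0.408 at 48 h, a difference of 1.27 with 56 of 67 pairs. These differences within a library do not depend on its scaling, apart from the prior count.

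Of the 18 series tested, 7 gained on their templates. Beside methionine and leucine, some tryptophans to leucine gained 1.13 (62 of 68 pairs), proline 0.83 (66 of 75), all tryptophans to phenylalanine 0.79 (50 of 62), some tryptophans to phenylalanine 0.64 (61 of 69) and asparagine 0.54 (57 of 77). Each was higher in 5 of 5 barcodes (exact permutation, adjusted over 18 series, p = 0.0179). Some tryptophans to tyrosine lost, at -5.10 ± 0.233 at 72 h and -3.38 ± 0.249 at 48 h, a difference of -1.73 with 0 of 16 pairs gaining (exact permutation, adjusted p = 0.0179). Cysteine lost as well, with a difference of -0.69 over 19 pairs (exact permutation, adjusted p = 0.0317).

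The other aliphatic residues did not pass. Isoleucine differed by -0.05 (exact permutation, adjusted p = 0.754). Valine differed by -0.19, lower in 5 of 5 barcodes (exact permutation, adjusted p = 0.571). Alanine gave 0.26, glutamine 0.30, threonine 0.30 and all tryptophans to leucine 0.47, each higher in 5 of 5 barcodes but not past the threshold. Serine gave -0.54, all aspartates to glutamate -0.84 (1 of 15 pairs gaining) and some aspartates to glutamate -0.31. Each of these was lower in 5 of 5 barcodes and did not pass (exact permutation, adjusted p = 0.0571). With barcode 1, 2, 4 or 5 left out 0 series passed, and 11 passed without barcode 3. The smallest p that 4 against 4 barcodes allow is 0.0286 before adjustment.

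The leucine series was the 1 design set of 24 tested that passed the adjusted test with a higher share. It held 44.0 ± 2.55% at 72 h and 24.9 ± 2.68% at 48 h, higher in 5 of 5 barcodes (exact permutation, adjusted p = 0.0173), and 12.6% at 24 h and 4.57% at 0 h. With entry 8135 kept in the totals, the other 99 leucine entries held 24.5 ± 7.09% at 72 h and 20.5 ± 3.99% at 48 h, higher in 5 of 5 barcodes but within the spread between them (unpaired exact permutation p = 0.365). With entry 8135 removed from the totals too, they held 30.2 ± 6.43% at 72 h and 21.4 ± 3.84% at 48 h, higher in 5 of 5 barcodes (exact permutation, unadjusted p = 0.0238), and the series did not pass after adjustment over the sets. Without entry 8122 as well, and with both kept in the totals, the rest held 20.2 ± 4.45% and 18.9 ± 3.24% (exact permutation p = 0.603). Of 73 fitted leucine entries 23 rose and 44 fell, where 4.71% of all fitted entries rose.

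Other sets with a higher mean share at 72 h did not pass the unpaired test, which counts standing differences between barcodes as spread. The tryptophan and aspartate controls held 3.48 ± 1.70% at 72 h and 2.29 ± 1.20% at 48 h, higher in 5 of 5 barcodes (exact permutation, adjusted p = 0.263). Methionine entries had 18.3 ± 3.27% at 72 h and 17.3 ± 2.73% at 48 h, also higher in 5 of 5 barcodes (exact permutation, adjusted p = 0.571), with 16 rises and 55 falls among 80 fitted. Proline entries had 8.16 ± 2.78% at 72 h and 8.11 ± 1.60% at 48 h (exact permutation, adjusted p = 0.968), with 9 rises and 71 falls among 89 fitted. Leucine, methionine and proline entries together made up 11.6% of reads at 0 h, 28.4% at 24 h, 50.3 ± 1.42% at 48 h and 70.5 ± 1.27% at 72 h. They supplied 48 of the 83 rises, at 23 of 73, 16 of 80 and 9 of 89 fitted entries, where 4.71% of all fitted entries rose. More entries of each series fell than rose, at 44, 55 and 71.

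Unsubstituted designs lost share. The designs in sets 1 to 32 held 6.20 ± 1.15% at 72 h and 12.9 ± 1.56% at 48 h, with 3 rises and 400 falls among 409 fitted, where 4.71% of all fitted entries rose and 90.5% fell. Of the 24 sets tested 14 fell, substitution series as well as unsubstituted designs. Set16 had 1.23 ± 0.343% at 72 h and 2.40 ± 0.189% at 48 h, and set4 had 0.375 ± 0.149% and 1.17 ± 0.271% (exact permutation, adjusted p = 0.0173 each). The sets set20 and set32 did not pass (exact permutation, adjusted p = 0.0847 and 0.0784). The alanine series had 1.91 ± 0.648% at 72 h and 3.70 ± 0.755% at 48 h (exact permutation, adjusted p = 0.0272). Isoleucine, threonine, asparagine and glutamine series fell too. The set W-neighbors-3 had 1.31 ± 0.116% at 72 h and 3.31 ± 0.463% at 48 h, and F-neighbors-3 had 0.819 ± 0.179% and 1.98 ± 0.280% (exact permutation, adjusted p = 0.0173 each). With entry 8135 left out of the totals, 6 sets fell and 0 rose. With any 1 barcode left out, 0 sets passed.

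The 10 largest falls among entries of at least 200 CPM were of peptides with 6 to 10 tryptophans, a range that overlaps that of the rises. Entry 11677 of set28, with 8 tryptophans and 6 aspartates, had 0.00492%, 0.00386%, 0.00268%, 0.0133% and 0.00761% at 72 h, against 0.0513%, 0.0353%, 0.0248%, 0.102% and 0.0631% at 48 h. Barcode 4 was highest at both times and the groups did not overlap, as for 307 falls of the 1764 fitted entries (17.4%). Its log2 change was -3.15 (SE 0.10, edgeR adjusted p = 8.28e-23), and it had been at 0.0861% at 0 h.

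Entry 2839 of W-neighbors-3 had the most negative log2 change of these falls, -3.18, with 0.00422 ± 0.00317% at 72 h and 0.0378 ± 0.0274% at 48 h. Valine entry 7908 had -3.12, and the leucine version of its template, entry 8108, had 0.31 with 1.03 ± 1.07% at 72 h and 0.827 ± 0.837% at 48 h. Entry 10814 of set20, with 10 tryptophans, had -3.08. The 10 largest falls stayed below 0 with TMM factors, between -1.42 and -1.12.

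Peptide composition per read shifted. A peptide had 1.75 ± 0.186 leucines at 72 h and 1.22 ± 0.129 at 48 h, averaged over reads, and 6.26 ± 0.0894 and 5.96 ± 0.0553 tryptophans (exact permutation, adjusted p = 0.0113 each). Aspartates came to 6.44 ± 0.106 at 72 h and 6.20 ± 0.0556 at 48 h, and glycines to 4.04 ± 0.107 and 4.57 ± 0.0760. Phenylalanine was lower, at 0.166 ± 0.0272 at 72 h and 0.290 ± 0.0399 at 48 h. Methionine had 0.651 ± 0.113 and 0.659 ± 0.0987 and did not pass (exact permutation, adjusted p = 0.913). Of 27 features 24 passed the adjusted exact test, 8 higher and 16 lower.

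Part of this shift went with entry 8135. Without it leucine stood at 1.43 per read at 72 h and 1.14 at 48 h (exact permutation p = 0.0556), and tryptophan at 6.08 and 5.92 (exact permutation p = 0.00794). Tryptophans in the last 5 residues came to 2.41 at 72 h and 2.27 at 48 h without it (exact permutation p = 0.00794). Among the 189 entries with a mean of at least 1000 CPM, Spearman rho with the log2 change was 0.02 for tryptophans, 0.12 for aspartates, 0.09 for leucines and 0.06 for hydrophobic residues. Over all 1764 fitted entries it was -0.03, 0.21, 0.20 and 0.19 in the same order. These entries share libraries, and many share a template.

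Controls made of tryptophan and aspartate, most with glycine, varied in the order of their residues and some also in composition. Entries 6840, 6841 and 6843 encode 1 peptide with 7 tryptophans and 5 aspartates in mixed order, and all 3 rose, by log2 changes of 0.79 to 1.32. The entry of that peptide left over, 6842, had no read. Entry 6843 held 0.183%, 3.37%, 0.359%, 1.39% and 0.461% at 72 h, against 0.0545%, 1.71%, 0.133%, 0.584% and 0.197% at 48 h. Barcode 2 was highest at both times, the groups overlapped and every barcode was higher at 72 h (log2 change 1.32, SE 0.08, edgeR adjusted p = 2.02e-17).

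A control whose tryptophans are flanked by aspartates on both sides had 4 fitted entries with log2 changes of 0.03 to 0.31, of which 2 rose. The control with the same residues in an aspartate block ahead of a tryptophan block was not fitted. Its 4 entries, 6836 to 6839, had 0.0367% to 0.0488% at 0 h and at most 0.000100% at 72 h and 0.000253% at 48 h. The control that alternates tryptophan and aspartate has 10 of each and no glycine. It had 3 fitted entries, and all 3 fell with total counts, at log2 changes of -1.78, -1.71 and -1.42. With TMM factors they were at -0.04, 0.03 and 0.33, none of them a fall and the last a rise (edgeR adjusted p = 0.041). Over 10 peptides carried by several fitted entries, the range of log2 change within a peptide was 0.28 to 1.73, with a median of 0.45. For the 3 peptides whose fitted entries all held at least 200 CPM, the largest range was 0.54. The SD over all fitted entries was 1.31, a different measure from a range over a few entries.

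Control activation domains were few in the library, 96 of 12400 entries, and held a small part of the reads. The Oaf1 domain, from a yeast activator of fatty acid metabolism genes, held 0.823 ± 0.0879% over 4 entries at 72 h and 1.10 ± 0.0480% at 48 h, lower in 5 of 5 barcodes. Its entries had log2 changes of -0.56 to -0.14 with total counts, 3 of them falls, and of 1.18 to 1.60 with TMM factors. The doubled minimal VP16 domain had 0.125 ± 0.0956% at 72 h and 0.112 ± 0.0846% at 48 h, with log2 changes of -0.11 to 0.38 and 2 rises among 4 entries. Over 96 entries of 24 control domains, 25 were fitted, 2 rose and 20 fell, near the 4.71% and 90.5% of all fitted entries. Their share was 1.03 ± 0.0999% at 72 h and 1.39 ± 0.132% at 48 h (exact permutation p = 0.00794).

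Gains were commonest among entries with high levels a day earlier. Grouped by mean level at 24 h, in libraries outside the comparison, 0 of 100 entries under 50 CPM rose, 2 of 529 at 50 to 200 CPM, 35 of 893 at 200 to 1000 CPM (3.92%) and 45 of 241 at 1000 to 5000 CPM (18.7%). Entry 8135 was the 1 entry above 5000 CPM at 24 h. The log2 change between 0 h and 24 h and that between 48 h and 72 h had a Pearson r of 0.55 and a Spearman rho of 0.61 over the 1764 entries, and of 0.38 and 0.38 over the 189 abundant ones. The 2 changes share no library, but entries are not independent replicates.

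Under the label 150 the effective number of entries was 52.9 ± 13.4 at 72 h and 188 ± 13.6 at 48 h, and its difference from the label 200 was not tested. Of 1888 fitted entries 1768 changed (93.6%), 135 of them higher (7.15%) and 1633 lower (86.5%). Entry 8135 held 10.8% at 72 h and 2.96% at 48 h, a log2 change of 1.87. Over the 189 abundant entries the log2 changes of the 2 labels had a Pearson r of 0.95 and a Spearman rho of 0.94, with medians of -0.11 at the label 200 and 0.15 at the label 150, and the labels share the starting library but no sequenced library of these times.

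The difference between labels was tested as a label by time term over 20 libraries. Of 1845 entries 1067 differed (57.8%), 22 with a higher change at the label 200 (1.19%) and 1045 with a lower one (56.6%), at a median difference of -0.67. TMM factors gave 158 higher and 135 lower at a median of -0.10, and without the barcode block 0 passed (edgeR, 7 at an unadjusted p under 0.05). For entry 8135 the difference was 0.30 with total counts (SE 0.06, edgeR adjusted p = 0.000103) and 0.87 with TMM. For entry 8824 it was 0.03 with total counts (edgeR adjusted p = 0.706) and 0.61 with TMM (edgeR adjusted p = 1.02e-05), so its call depends on the scaling.

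Differences were ranked among entries past the threshold with a mean of at least 200 CPM over the 20 libraries. The 5 largest positive ones were 0.43 for entry 8120, 0.42 for 8256, 0.35 for 8856, 0.33 for 6843 and 0.31 for 8235. Entries 8256 and 8856 are the methionine and proline versions of template 12056. Entry 8856 had 0.0409 ± 0.0276% at 72 h and 0.0411 ± 0.0257% at 48 h, with log2 changes of -0.01 at the label 200 (edgeR adjusted p = 0.933) and -0.36 at the label 150. The 5 largest negative differences under the same rule belonged to entries that fell at both labels. Isoleucine entry 8041 had log2 changes of -3.72 at the label 200 and -1.95 at the label 150, a difference of -1.73 (SE 0.20, edgeR adjusted p = 1.4e-07), and the leucine version of its template, entry 8141, had 0.25 and 0.54. Leucine entry 8094 had -3.76 and -2.06, and threonine entry 8438, proline entry 8868 and alanine entry 7843 had differences of -1.47, -1.43 and -1.35.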

How the data were processed

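Designed peptides were recovered by PCR from yeast DNA and sequenced, per the labels' protocols. The deposited values are raw whole-number read counts per entry and barcode, per the file headers. Cutadapt and STAR are listed, per the submitters' processing notes, and how reads were assigned to entries is not given in the sources used here. Groups came from the sample titles.

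Members, lists and tests were chosen with earlier results of these data known. Shares are percentages of a library's total count. Entries with a mean of 10 or more counts over 10 libraries were fitted with edgeR 4.0.16 (R 4.3.3; quasi-likelihood, total-count scaling, barcode as a block), with Benjamini-Hochberg adjustment over all fitted entries at 0.05. Same-numbered barcodes deviated together (0.916 to 0.930), with other pairs at -0.287 to -0.168. Deviations were taken from each entry's mean over the 5 barcodes of a group. With positive same-barcode values, that step makes the other pairs negative on average. Set shares, residue content and differences from templates (log2 CPM, prior count 2) were compared by two-sided exact permutation in Python 3.11.15. Sets were tested at 0.5% of reads or more. On simulated counts for this comparison, over 1764 entries, 88% of 2-fold and 98% of 4-fold changes were recovered. The simulation changed 100 entries at each fold, up and down in equal numbers. It held no shift of most entries, so it cannot speak to calls that depend on scaling. Alternatives were TMM, DESeq2 1.42.0, other count minimums and prior counts, no block, and leaving out the largest entry or a barcode. Named entries were the 12 largest rises and 10 largest falls at 200 CPM or more that moved alike in 5 barcodes, and the 12 largest entries at each time. Also named were the 5 largest differences between labels each way and the control domains, both at 200 CPM or more. Intervals between barcodes do not cover PCR error, since reads carry no molecular identifier.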

Additional observations from a re-analysis of the deposited data

Results flagged for a closer look

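Of 194 groups of 5 barcodes examined, 21 had 1 barcode far from the other 4 by Dixon's criterion, and chance flags about 1 in 20 groups. In barcode 1, entry 6840 had 2.349% at 72 h and 1.196% at 48 h, entry 8111 had 1.858% and 1.134%, and the plant HSFA2 control entry 6789 had 0.2485% and 0.194%. Entry 8113 had 1.312% in barcode 1 at 48 h. In barcode 5, entry 8120 had 1.906% at 72 h and 0.9194% at 48 h, and entry 2836 of W-neighbors-3 had 0.0275% and 0.2299%. In barcode 2, entry 7843 was low, at 0.0006435% at 72 h and 0.009809% at 48 h, and entry 10470 of set16 was low at 72 h with 0.002502%. Entry 12043 of set32 was low in barcode 3 at 48 h with 0.02462%.

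Among sets, set16 was high in barcode 3 at 72 h (1.833%), some tryptophans to leucine in barcode 1 at 72 h (1.971%), and some aspartates to glutamate in barcode 5 at 72 h (0.5561%) and 48 h (1.359%). Per read, glutamine was at 0.05175 in barcode 4 and glutamate at 0.06454 in barcode 5, both at 48 h.

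Listed here are the 5 largest differences each way between labels 200 and 150 in the change from 48 h to 72 h. They come from the label by time term, among entries with a mean of at least 200 CPM. Other named entries passed that test as well, among them entry 8135 at 0.30. The difference was 0.43 for entry 8120, 0.42 for 8256, 0.35 for 8856, 0.33 for 6843 and 0.31 for 8235, and it was -1.73 for 8041, -1.67 for 8094, -1.47 for 8438, -1.43 for 8868 and -1.35 for 7843.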

How the results depend on the processing

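Each label and time is 1 sample, so precision rests on 5 barcodes, and entries under 10 mean counts were not tested. TMM factors gave 573 higher and 813 lower entries and DESeq2 608 and 719, against 83 and 1597 with total counts. Without entry 8135, 128 were higher. Without the replicate block 1 was higher and 658 lower. Between labels 1067 entries differed in the main fit, 293 with TMM factors and 0 without the replicate block. Exact sign-flip permutations within barcodes, the paired test, passed 0 sets, 0 features and 0 series and gave an effective-number difference of -121.9 (p = 0.0625, the smallest it can give). Without entry 8135, 6 sets passed. Leaving out 1 barcode gave 0 to 0 sets and 0 to 11 series. TMM and DESeq2 turned these log2 changes positive: entry 10797 (1.437 and 1.540), 8856 (1.740 and 1.837), Oaf1 entries 6780 (1.231 and 1.335), 6781 (1.229 and 1.333), 6782 (1.604 and 1.704) and 6783 (1.179 and 1.280), HSFA2 entry 6789 (1.233 and 1.316) and doubled VP16 entry 6813 (1.665 and 1.766). Entry 8856 was at 0.242 without entry 8135, and entry 6789 at 0.046 with no replicate block. The other 37 named entries kept their direction under TMM and DESeq2. Why these values moved was not tested beyond the scaling shift of 1.72 for TMM and 1.84 for DESeq2.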
